A study of Danio rerio with 12 samples.

Results

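The comparison described here is the difference of one effect between tissues: what loss of desmin does to extraocular muscle (EOM), which turns the eye, set against what it does to trunk muscle in adult zebrafish. It was chosen from the design, with earlier results of these data known. All 12 of the 12 libraries of the series entered it, 3 in each of 4 groups: desma-/-;desmb-/- EOM, WT EOM, desma-/-;desmb-/- trunk and WT trunk. All fish were of strain AB and 20 months old, and the labels give the cells as myofibres of each muscle. Per the labels, the WT fish share the background of the double mutants, which were generated in the same line. The genotype is given for the fish, not for the muscle alone. The text of the series names desmin as knocked down and gives more than 1 age, whereas each sample label gives a double mutant or WT and a single age. The titles number the samples of each kind as groups, and do not say whether a group is 1 fish or several, or whether an EOM and a trunk sample came from the same fish. The p-values therefore measure the spread between these samples, which may be partly technical.

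Desmin is the main intermediate filament protein of skeletal muscle. It links neighbouring myofibrils at the Z-disc and ties them to the costameres of the fibre membrane, to mitochondria and to nuclei. Desmin mutations in humans cause myofibrillar myopathy. The EOMs hold fibre types and myosins that trunk muscle lacks or holds little of, and in many human muscular dystrophies they are spared. The zebrafish genome carries a pair of desmin genes, desma and desmb.

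RNA was measured as reads per gene in stranded, poly-A selected libraries, and levels are given in CPM, the count scaled to a common library size. Sense reads in genes totalled between 46090609 and 74146170 per library, so that 3 reads correspond to between 0.0373 and 0.0754 CPM. In both muscles the expressed desmin gene was low in every mutant library: DES ENSDARG00000058656.6 had 26.2, 36.1 and 42.6 CPM in mutant EOM, against 573, 685 and 649 CPM in WT EOM. In trunk DES had 17.7, 30.7 and 49.3 CPM in mutants, against 619, 679 and 560 CPM in WT. Its log2 fold change of mutant over WT was -4.18 ± 0.32 in EOM (fitted value ± SE) and -4.25 ± 0.32 in trunk, and passed the test in both. The difference between those folds was 0.06 ± 0.40 (edgeR quasi-likelihood test, adjusted p = 0.971). The other desmin gene, DES ENSDARG00000005221.8, had between 3 and 14 reads in each of the 12 libraries. The name table gives both genes the same symbol, so that desma and desmb are told apart here by their identifiers alone. Of 21 matched genes of skeletal muscle fibres, 20 averaged 10 CPM or more in each of the 4 groups.

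The quantity tested for each gene was the log2 fold change of mutant over WT in EOM minus the log2 fold change of mutant over WT in trunk. A positive difference means that the mutant level, relative to WT, was higher in EOM than in trunk, and a negative one that it was lower. Of 19687 genes tested in 1 model over the 4 groups, 18 passed an adjusted p of 0.05 (edgeR quasi-likelihood test, Benjamini-Hochberg adjustment), or 0.0914%. The difference was positive in 6 of them (0.0305% of the tested genes) and negative in 12 (0.061%). Mutant and WT differed in 811 genes in EOM (4.12%; 463 or 2.35% higher and 348 or 1.77% lower in mutants) and in 1597 genes in trunk (8.11%; 964 or 4.9% higher and 633 or 3.22% lower in mutants). At an unadjusted p under 0.05 the difference between muscles passed for 1930 genes (9.8%), with 996 positive (5.06%) and 934 negative (4.74%). With unscaled library totals the split in EOM was 578 higher and 236 lower. These shares are the background against which the counts of each function are given. The median difference over all tested genes was -0.01, and with unscaled library totals it moved by 0.12 to 0.11. Medians of a function are therefore given relative to that of all tested genes under the same scaling. Counts of members were made under the main scaling and can move with unscaled totals.

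In 14 of the 18 genes the fitted mutant effect had opposite signs in the muscles, and in 4 it had the same sign. The 18 were selected by the difference of the effects, which itself favours opposite signs, and the share among all genes was not counted. Selection by p-values from these same libraries, here and in the lists further on, also favours groups without overlap. Lack of overlap therefore describes the named genes and is no added support, and its share among all genes was not counted. Of the 14, 3 passed the test as higher in mutant EOM and as lower in mutant trunk (si:dkey-193e13.8, dlg2 and sacs). Another 3 passed it as the reverse (THBS4, zgc:110699 and rasd2b), and the rest of the 14 passed in 1 muscle only. The genes txnb and dhrs11b.1 rose in both muscles and PAX6 fell in both, each by more in trunk. In EOM alone, sestd1 passed the test as higher in mutants, and ndufa4b, ENSDARG00000098989, TGM2 and myo5b as lower. In trunk alone, TNNI2, ENSDARG00000104924 and comp passed it as higher and mylk3 as lower. In all, 10 of the 18 belong to 1 or more of the 50 function lists described further on. Those lists were chosen with earlier results of these data known, and the share of all tested genes in them was not counted. The 10 therefore do not show that the calls favour these functions.

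**Figure D1:**
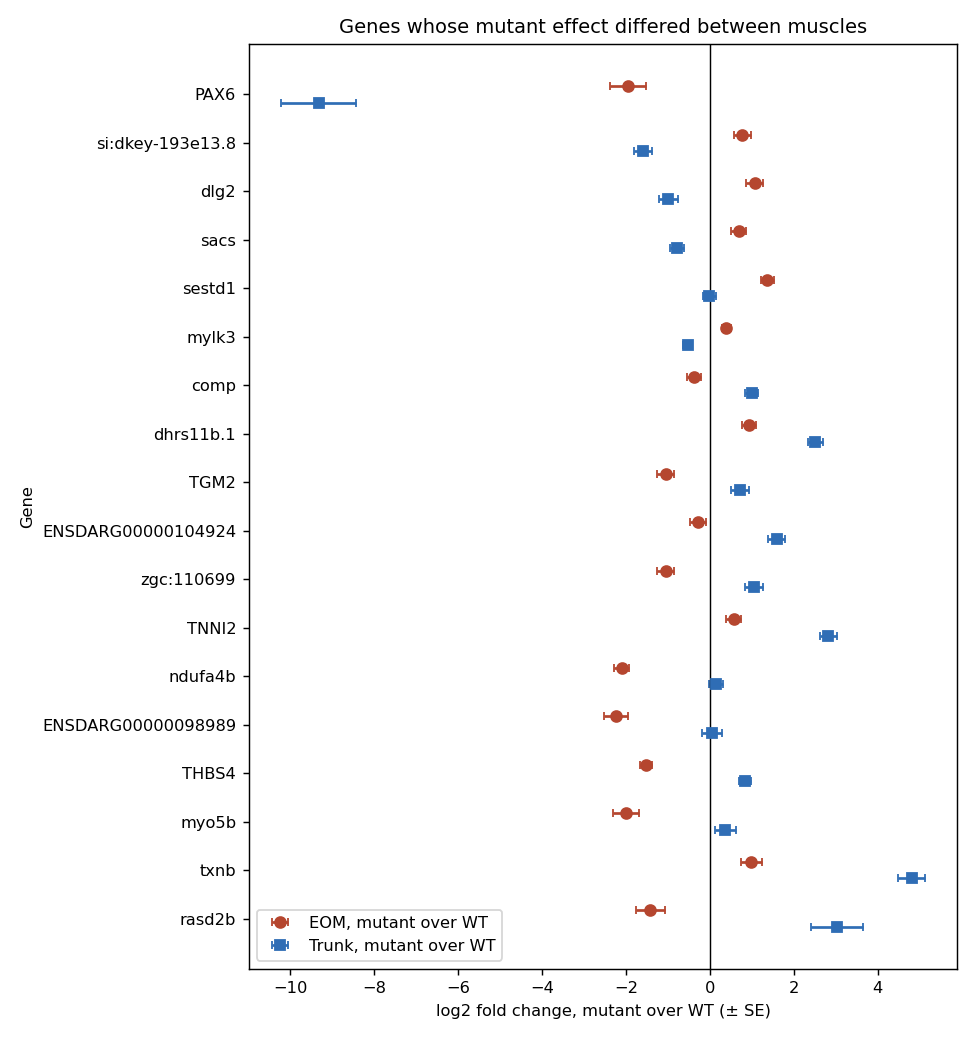
Fitted log2 fold change of mutant over WT (± SE) in EOM (circles) and in trunk (squares) for the 18 genes whose mutant effect differed between muscles at an adjusted p of 0.05, ordered by the difference. For 14 genes the points lie on opposite sides of 0, with THBS4 at -1.52 in EOM and 0.85 in trunk. The trunk values of PAX6 and rasd2b rest on groups with 0 and 3 reads in all, and their size depends on the small count that the model adds.

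Of genes of the extracellular matrix and of tendon attachment, THBS4, comp and TGM2 were called. A list of 9 tested tendon genes (10 matched), none of them called, went both ways. It was written to include xirp2a, and XIRP2 is given further on with the Z-disc genes. It also holds egr2b, which stands in the nerve list too, so it is not a list of tendon alone. In it 3 (33.3%) had a positive and 2 (22.2%) a negative difference at an unadjusted p under 0.05. Its median was -0.04 relative to all genes, from -0.25 without WT EOM 2 to 0.46 without WT EOM 3. THBS4 (ENSDARG00000102777.3) encodes a thrombospondin, a secreted glycoprotein found where muscle fibres attach to tendon. It had 5.48, 4.83 and 4.33 CPM in mutant EOM, against 14.2, 13.2 and 14.6 CPM in WT EOM. In trunk THBS4 had 37.8, 40.0 and 28.9 CPM in mutants, against 17.8, 21.0 and 20.5 CPM in WT. Every mutant EOM library lay below every WT EOM library, and every mutant trunk library above every WT trunk library. Its log2 fold change was -1.52 ± 0.14 in EOM and 0.85 ± 0.14 in trunk, a difference of -2.36 ± 0.20 (edgeR quasi-likelihood test, adjusted p = 0.000252). The second gene that carries the symbol THBS4, ENSDARG00000020072.9, averaged 40.05 ± 8.07 CPM in mutant EOM and 34.5 ± 8.29 CPM in WT EOM (SD, n = 3 each). In trunk that copy averaged 33.3 ± 5.02 CPM in mutants and 22.8 ± 3.87 CPM in WT, and its difference between muscles was -0.33 ± 0.29 (adjusted p = 0.729, edgeR quasi-likelihood test).

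The gene comp encodes cartilage oligomeric matrix protein, a thrombospondin of tendon and cartilage. It had 1.24, 1.22 and 1.27 CPM in mutant EOM, against 2.07, 1.41 and 1.39 CPM in WT EOM, and the 3 mutant libraries lay below the 3 WT libraries. In trunk, comp had 22.4, 21.6 and 18.2 CPM in mutants, against 10.0, 10.2 and 10.9 CPM in WT, all mutants above all WT. The log2 fold change was 1.00 ± 0.15 in trunk, where it passed the test, and -0.38 ± 0.17 in EOM, where it did not. The difference was -1.37 ± 0.23 (edgeR quasi-likelihood test, adjusted p = 0.0425). TGM2 (ENSDARG00000070157.5) encodes a transglutaminase, an enzyme that crosslinks matrix proteins. It had 9.38, 7.83 and 6.56 CPM in mutant EOM, against 19.0, 10.5 and 19.8 CPM in WT EOM. In trunk TGM2 had 15.6, 15.6 and 13.3 CPM in mutants, against 9.97, 8.69 and 8.42 CPM in WT. Neither pair of groups overlapped, and the second WT EOM library lay nearest to the mutants. The log2 fold change was -1.05 ± 0.21 in EOM, where it passed the test, and 0.71 ± 0.21 in trunk, where it did not. The difference for TGM2 was -1.77 ± 0.30 (adjusted p = 0.0497, edgeR quasi-likelihood test). TGM2 is in none of the function lists and is placed here by its known role. Values of other genes that carry the symbol TGM2 are not given here.

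Of contractile genes and their regulators, TNNI2 and mylk3 were called. TNNI2 (ENSDARG00000035958.9) encodes a fast-type troponin I, the troponin subunit that holds actin and myosin apart in the absence of calcium. It had 740, 656 and 564 CPM in mutant EOM, against 411, 436 and 472 CPM in WT EOM. In trunk TNNI2 had 8.97, 5.87 and 8.83 CPM in mutants, against 0.925, 1.03 and 1.38 CPM in WT. The mutant libraries were the higher ones in both muscles, with no overlap, and the fold was larger in trunk. Its log2 fold change was 0.57 ± 0.17 in EOM, which did not pass the test, and 2.83 ± 0.21 in trunk, which did. The difference was -2.26 ± 0.27 (edgeR quasi-likelihood test, adjusted p = 0.00426). The other 5 tested genes with the symbol TNNI2 had differences between -0.69 and 0.40, none of which passed the test. The counting kept reads with more than 1 match out of the genes, which makes values of copies alike in sequence uncertain. How alike these genes are was not tested.

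The gene mylk3 encodes a kinase that in mammals phosphorylates the regulatory light chain of cardiac myosin. It had 68.1, 82.9 and 68.2 CPM in mutant EOM, against 54.6, 55.2 and 56.8 CPM in WT EOM. In trunk mylk3 had 44.4, 40.24 and 43.2 CPM in mutants, against 60.6, 61.8 and 62.2 CPM in WT. Mutants lay above WT in EOM and below WT in trunk, without overlap. The log2 fold change was 0.40 ± 0.11 in EOM and -0.53 ± 0.11 in trunk, a difference of 0.92 ± 0.16 (adjusted p = 0.0497, edgeR quasi-likelihood test).

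Among genes of energy and redox metabolism, ndufa4b changed in EOM. It is related to NDUFA4, which in mammals is a subunit of cytochrome c oxidase, the last enzyme of the respiratory chain. It had 1.94, 1.58 and 2.12 CPM in mutant EOM, against 8.36, 9.06 and 6.79 CPM in WT EOM. In trunk ndufa4b had 5.52, 4.96 and 4.60 CPM in mutants, against 4.11, 4.57 and 4.83 CPM in WT. The groups were apart in EOM and overlapped in trunk. The log2 fold change was -2.10 ± 0.17 in EOM and 0.16 ± 0.17 in trunk, and the difference -2.26 ± 0.24 (edgeR quasi-likelihood test, adjusted p = 0.00159). The related gene NDUFA4 had a difference of -0.19 ± 0.23 (adjusted p = 0.817, edgeR).

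The gene txnb encodes a thioredoxin, a small protein that reduces disulphide bonds in other proteins. It had 9.37, 11.3 and 7.69 CPM in mutant EOM, against 5.89, 5.10 and 3.25 CPM in WT EOM. In trunk txnb had 16.0, 11.6 and 15.3 CPM in mutants, against 0.564, 0.251 and 0.704 CPM in WT. It rose in both muscles with no overlap, by 0.99 ± 0.26 on the log2 scale in EOM and by 4.81 ± 0.32 in trunk. The difference was -3.82 ± 0.41 (edgeR quasi-likelihood test, adjusted p = 0.00163). The related gene TXN had a difference of -0.24 ± 0.23 (adjusted p = 0.758, edgeR). The gene dhrs11b.1, of the short-chain dehydrogenase family, had 5.73, 5.63 and 5.10 CPM in mutant EOM, against 3.24, 2.67 and 2.70 CPM in WT EOM. In trunk dhrs11b.1 had 12.03, 13.1 and 10.1 CPM in mutants, against 2.08, 2.39 and 1.68 CPM in WT. It too rose in both muscles, with a difference of -1.58 ± 0.23 (adjusted p = 0.0187, edgeR quasi-likelihood test).

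A further set encodes scaffold, signalling and transport proteins. The gene dlg2 encodes a membrane-associated guanylate kinase that clusters receptors and channels at synapses. It had 9.66, 11.8 and 11.8 CPM in mutant EOM, against 5.15, 4.88 and 5.85 CPM in WT EOM. In trunk dlg2 had 2.06, 1.18 and 1.59 CPM in mutants, against 2.37, 3.77 and 3.44 CPM in WT. It rose in EOM and fell in trunk without overlap, with a difference of 2.06 ± 0.30 (edgeR quasi-likelihood test, adjusted p = 0.0187). The gene sestd1 encodes a protein with spectrin-type and lipid-binding domains that in mammals interacts with TRPC cation channels. It had 105.5, 96.6 and 81.4 CPM in mutant EOM, against 30.7, 44.7 and 34.4 CPM in WT EOM. In trunk sestd1 averaged 12.2 ± 1.078 CPM in mutants and 12.3 ± 0.969 CPM in WT (SD, n = 3 each). It was higher in all 3 mutant EOM libraries and overlapped in trunk, with a difference of 1.38 ± 0.22 (adjusted p = 0.033, edgeR quasi-likelihood test).

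The gene sacs encodes sacsin, a large co-chaperone whose loss in humans causes an ataxia with disordered neurofilaments. It had 12.9, 14.2 and 12.8 CPM in mutant EOM, against 7.93, 8.21 and 8.54 CPM in WT EOM. In trunk sacs had 15.1, 20.4 and 28.5 CPM in mutants, against 40.0, 35.2 and 34.7 CPM in WT. Mutants lay above WT in EOM and below WT in trunk, and the difference was 1.47 ± 0.25 (edgeR quasi-likelihood test, adjusted p = 0.0497). The gene myo5b encodes a class V myosin, a motor that moves vesicles along actin. It had 0.684, 0.599 and 0.194 CPM in mutant EOM, against 2.08, 2.16 and 1.76 CPM in WT EOM. In trunk myo5b had 18.9, 22.8 and 20.9 CPM in mutants, against 20.5, 14.4 and 13.5 CPM in WT. It fell in EOM and overlapped in trunk, with a difference of -2.38 ± 0.40 (adjusted p = 0.0497, edgeR quasi-likelihood test). The gene rasd2b, of the Ras family of small GTPases, had 0.435, 0.523 and 0.512 CPM in mutant EOM, against 1.66, 1.00 and 1.27 CPM in WT EOM. In trunk rasd2b had few reads, with 12, 9 and 10 reads in mutants, against 2, 0 and 1 reads in WT. It fell in EOM and rose in trunk. Its level over the 3 mutant trunk libraries was 8.74 times that over the WT trunk libraries (95% exact interval 2.73 to 44.7, counting error only), and its fitted difference of -4.45 ± 0.70 had an adjusted p of 0.0336 (edgeR quasi-likelihood test).

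PAX6 (ENSDARG00000045936.11) encodes a transcription factor known for its part in eye development. It had 18, 22 and 11 reads in mutant EOM, against 51, 45 and 81 reads in WT EOM. In trunk PAX6 had 0 reads in each of the 3 mutant libraries, against 85, 51 and 33 in WT. It fell in both muscles, and its level in mutant trunk was at least 66.6-fold lower than in WT trunk, taking 3 reads over the group as the floor. The fitted difference of 7.38 ± 1.18 (adjusted p = 0.0497, edgeR quasi-likelihood test) depends on the small count the model adds and is no measure of size. Markers of retina and photoreceptors varied across these libraries too. Their summed level over 41 genes was 180, 282 and 343 CPM in mutant EOM, against 631, 418 and 137 CPM in WT EOM, and the EOM groups overlapped. In trunk the sum was 59.8, 63.1 and 63.8 CPM in mutants, against 169, 67.8 and 72.4 CPM in WT. In mutant trunk 12 of the 41 genes had no read, against 2 of 41 in WT trunk. The first WT trunk library stood above the other trunk libraries in the summed level of these markers, and their part in the values of PAX6 was not tested. Values of other genes that carry the symbol PAX6 are not given here.

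Of the other called genes, si:dkey-193e13.8 had 2.39, 2.59 and 2.63 CPM in mutant EOM, against 1.43, 1.55 and 1.45 CPM in WT EOM. In trunk si:dkey-193e13.8 had 0.825, 0.931 and 0.795 CPM in mutants, against 2.44, 2.08 and 3.19 CPM in WT. It rose in EOM and fell in trunk without overlap, with a difference of 2.37 ± 0.29 (edgeR quasi-likelihood test, adjusted p = 0.00435). The gene zgc:110699 averaged 2.04 ± 0.324 CPM in mutant EOM and 4.22 ± 0.147 CPM in WT EOM, with trunk values of 3.93 ± 0.901 CPM in mutants and 1.89 ± 0.333 CPM in WT (SD, n = 3 each). It fell in EOM and rose in trunk, with a difference of -2.10 ± 0.30 (adjusted p = 0.0187, edgeR quasi-likelihood test). ENSDARG00000104924 averaged 9.10 ± 0.380 CPM in mutant EOM and 11.01 ± 1.88 CPM in WT EOM, with trunk values of 32.4 ± 5.28 CPM in mutants and 10.7 ± 2.90 CPM in WT. Its groups overlapped in EOM and were apart in trunk, with a difference of -1.87 ± 0.27 (adjusted p = 0.0187, edgeR quasi-likelihood test). ENSDARG00000098989 averaged 0.306 ± 0.102 CPM in mutant EOM and 1.46 ± 0.412 CPM in WT EOM, with trunk values of 6.88 ± 0.908 CPM in mutants and 6.64 ± 1.42 CPM in WT. There the groups were apart in EOM and overlapped in trunk. Its difference was -2.30 ± 0.37 (adjusted p = 0.0397, edgeR quasi-likelihood test). The name table used here gives neither of these IDs a symbol.

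**Figure D2:**
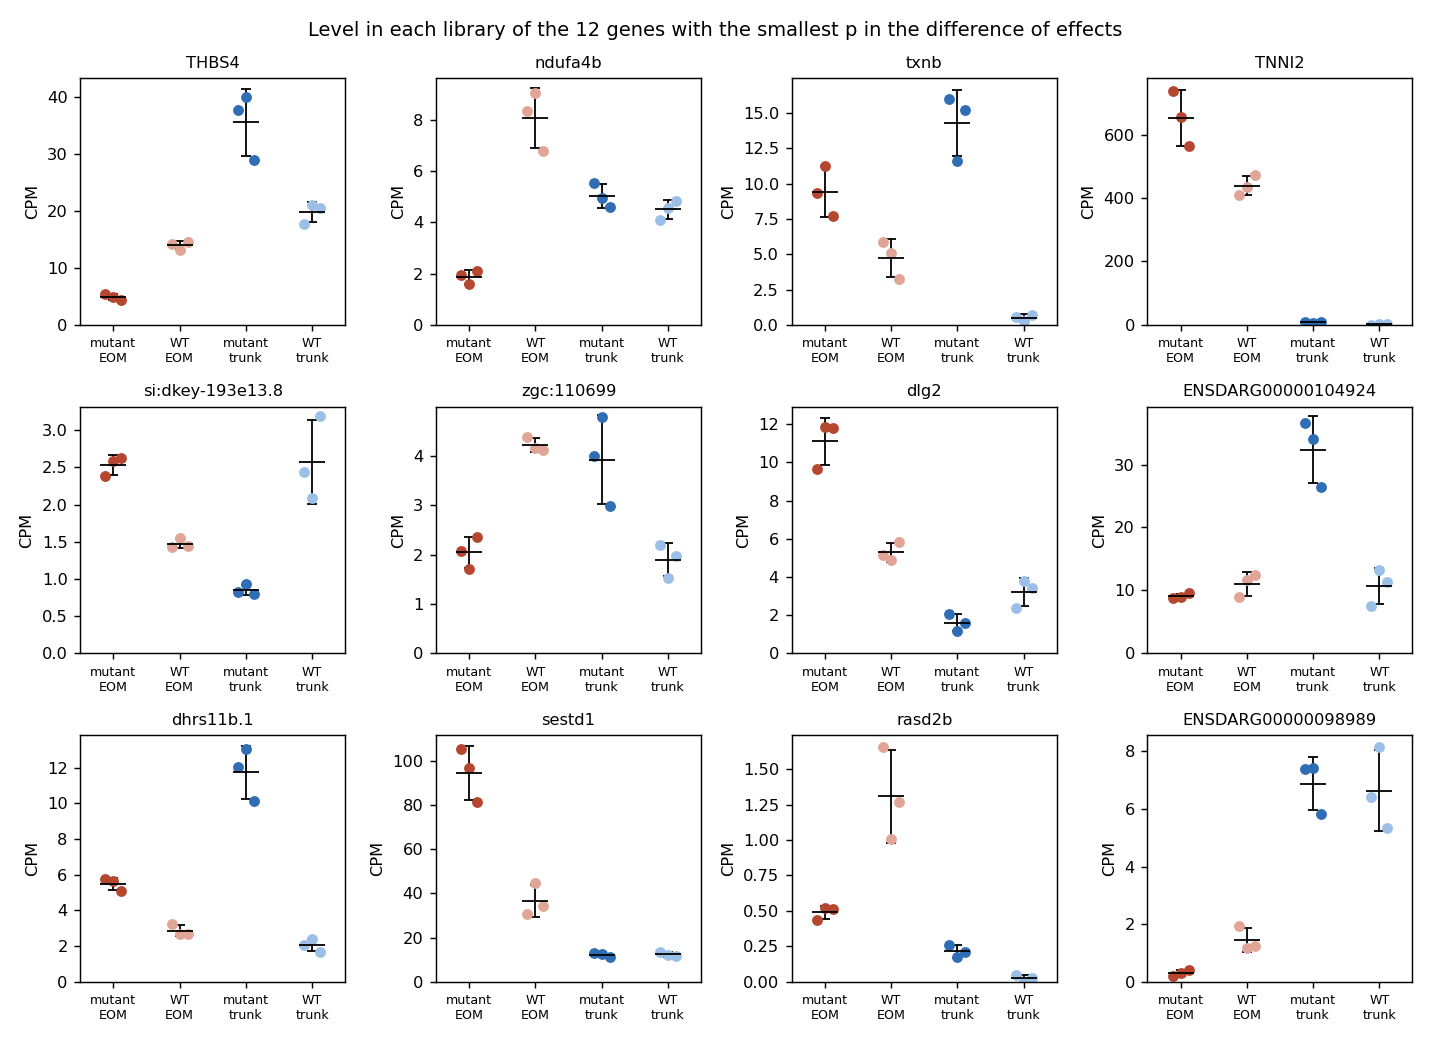
CPM in each library (points), with the group mean and SD (bars), for the 12 genes with the smallest p in the difference of effects; columns are mutant EOM, WT EOM, mutant trunk and WT trunk, 3 libraries each. THBS4 is low in mutant EOM (4.33 to 5.48 CPM) and high in mutant trunk (28.9 to 40.0 CPM), while ndufa4b separates mutant from WT in EOM alone.

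Each of the 12 libraries was left out in turn to see how these calls moved. Each such fit has fewer libraries in 1 group, so a call near the threshold can be lost through lower power alone. A lost call therefore does not show that it rests on the library left out. The same holds for the counts of list members given further on. THBS4, ndufa4b, txnb, TNNI2 and si:dkey-193e13.8 passed in all 12 fits, with adjusted p up to 0.0306 (edgeR quasi-likelihood test). The call of dlg2 was lost without WT EOM 1, mutant EOM 2 or mutant trunk 2, at adjusted p between 0.0681 and 0.0904 (numbers are replicates). That of ENSDARG00000104924 was lost without mutant EOM 1 or 2 or mutant trunk 1 or 2 (0.0679 to 0.0904), and that of zgc:110699 without those or WT EOM 1 (0.0602 to 0.0904). The call of dhrs11b.1 was lost without the same 5 libraries or WT trunk 1 (0.0600 to 0.0904), and that of ENSDARG00000098989 without those 6 or WT trunk 3 (0.0610 to 0.137). For sestd1 it remained without WT EOM 2, mutant EOM 3, WT trunk 2 or WT trunk 3 and was lost in the other 8 fits (0.0613 to 0.116). For comp it remained without WT EOM 2, WT EOM 3 or mutant trunk 3 (lost at 0.0601 to 0.151), for rasd2b without WT EOM 2 or WT trunk 2 (lost at 0.0518 to 0.116), and for PAX6 without WT EOM 3 or WT trunk 3 (lost at 0.0559 to 0.159). TGM2 kept it without WT EOM 2, sacs without mutant trunk 3 and myo5b without mutant EOM 3, and each lost it in the other 11 fits at adjusted p between 0.0565 and 0.159. The call of mylk3 was lost in all 12 (0.0610 to 0.159). The number of genes called in all was 8 without WT EOM 1 or WT trunk 1, 7 without mutant EOM 1 or mutant trunk 1, 5 without mutant EOM 2 or mutant trunk 2, and 14 to 19 in the other 6 fits. None of the 18 differences changed sign in any of these fits.

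Beyond single genes, functions were described by lists of known members, each by its count of members with an unadjusted p under 0.05 in the difference and by its median difference relative to all tested genes. No list was given a test of its own, and a gene named from a list did not pass the adjusted threshold in the difference unless it is among the 18. The lists of antigen presentation, the proteasome, leukocytes, cytosolic ribosomal proteins and glycolysis lay below the median of all genes, and did so without any 1 library. So did that of the nuclear respiratory chain, except without WT EOM 2, and that of interferon-stimulated genes, except without WT EOM 1. Without WT EOM 2 the proteasome list was at -0.07 and the list of glycolysis and phosphagen at -0.09. In WT EOM 2 the summed respiratory chain level was 45781 CPM, against 29612 and 29696 CPM in WT EOM 1 and 3. The summed proteasome level was 2479 CPM there, against 1738 and 1724 CPM. The part of this library in the medians of several lists at once was not tested. The lists of costamere adhesion, myosin heavy chains and mitochondrially encoded genes lay above the median of all genes. Fatty acid oxidation lay close to it (0.01), at -0.05 to 0.18 when 1 library was left out, the highest without WT trunk 2. Markers of some other cell types lay further from it than most of these functions and are given beside the plot of their summed levels.

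**Figure D3:**
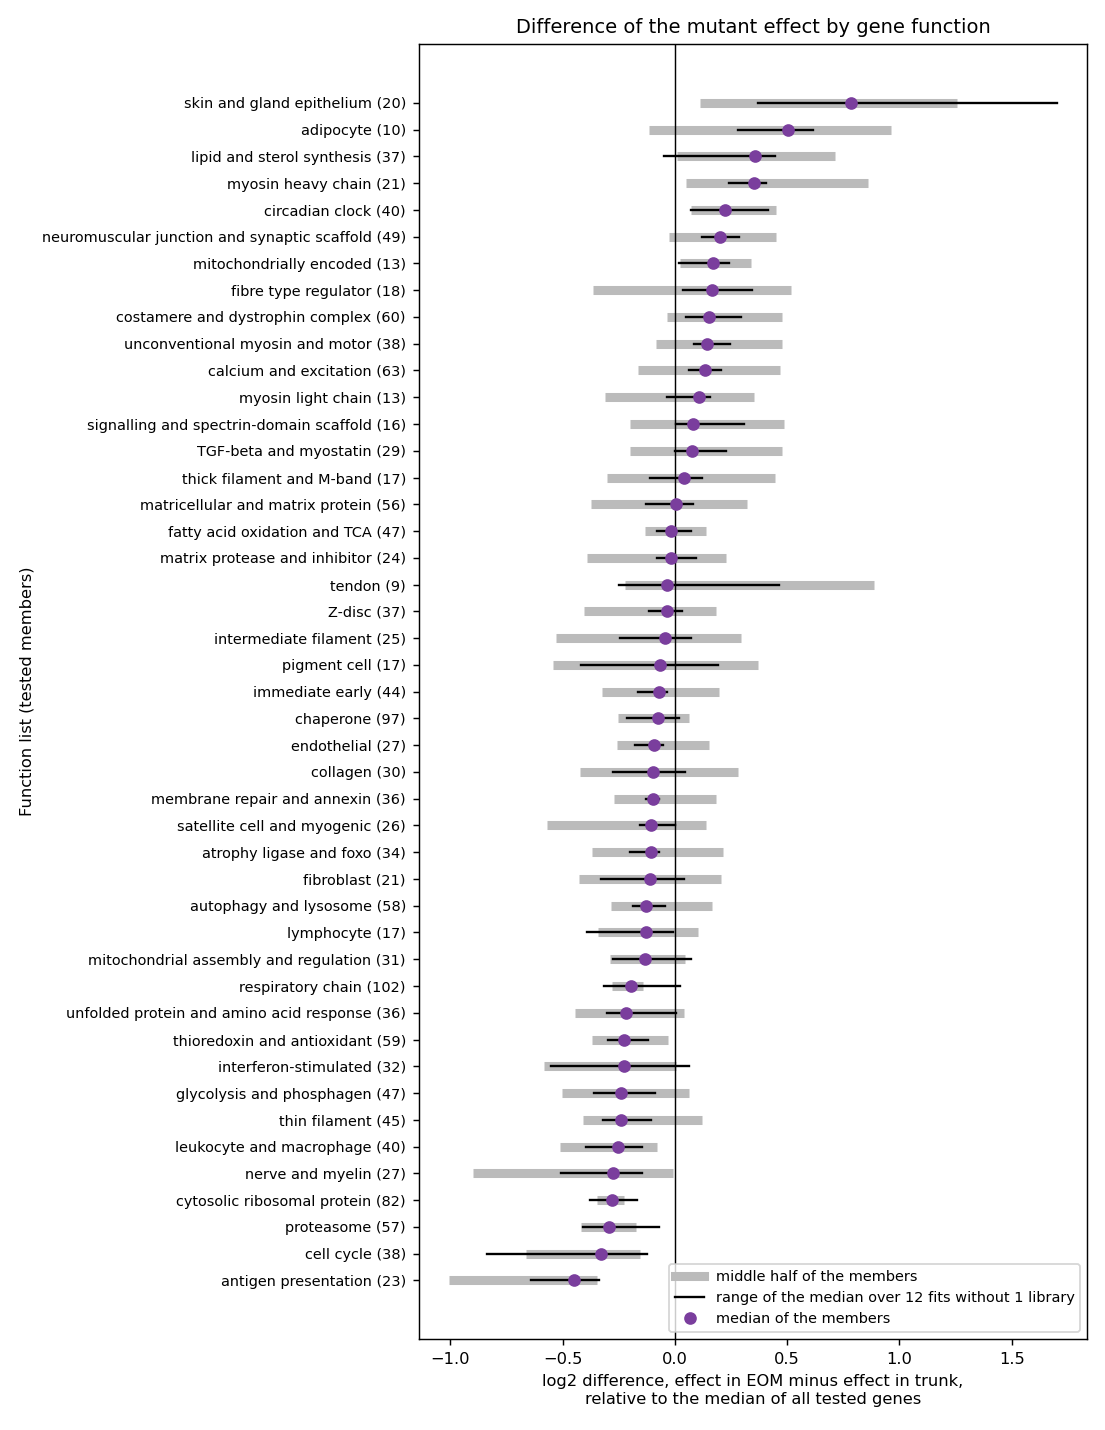
Median difference of the mutant effect, EOM minus trunk, for each function list with 9 or more tested members (dot), relative to the median of all tested genes, with the middle 50% of the members (grey) and the range of the median over 12 fits that each leave out 1 library (black line). Antigen presentation lies lowest (-0.45) and skin and gland epithelium highest (0.78), and costamere adhesion genes belong to a list at 0.15; a list of retina and photoreceptor genes at 2.50 is off this scale and not drawn.

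In antigen presentation and the proteasome, mutant effects were mostly lower in EOM than in trunk. Cells cut proteins with the proteasome, and under interferon they swap in inducible catalytic subunits that prepare peptides for display on MHC molecules. All 23 matched genes of antigen presentation were tested. Of these, 9 (39.1%) had a negative difference at an unadjusted p under 0.05 and 0 had a positive one, against 4.74% and 5.06% of all genes. The median log2 fold change of mutant over WT was 0.51 in EOM and 0.97 in trunk. Mutants were higher in 5 members in EOM and in 15 in trunk at an adjusted p of 0.05, where 2.35% and 4.9% of all genes were, and 1 was lower in each muscle. The median difference was -0.45 relative to all genes, between -0.64 and -0.34 when 1 library was left out, and the count of 9 was 15 without mutant trunk 3. With unscaled library totals that count was 8.

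PSMB9, an inducible catalytic subunit, had 6.77, 7.33 and 6.51 CPM in mutant EOM, against 3.98, 4.09 and 5.43 CPM in WT EOM. In trunk PSMB9 had 29.4, 16.1 and 9.77 CPM in mutants, against 2.86, 3.97 and 3.09 CPM in WT. Mutants were the higher group in both muscles without overlap, and the 3 mutant trunk libraries differed widely from each other. Its difference was -1.87 ± 0.43 (edgeR quasi-likelihood test, adjusted p = 0.173). PSMB8, another inducible subunit, averaged 11.9 ± 0.471 CPM in mutant EOM and 5.99 ± 0.353 CPM in WT EOM, with trunk values of 16.6 ± 7.56 CPM in mutants and 3.28 ± 0.539 CPM in WT (SD, n = 3 each). It rose in both muscles, with a difference of -1.34 ± 0.34 (adjusted p = 0.217, edgeR). The gene psmb10, a further inducible subunit, also rose in both, by 0.75 ± 0.18 on the log2 scale in EOM and by 1.96 ± 0.19 in trunk.

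Over the proteasome as a whole, 52 of 57 tested members (59 matched) had a difference below 0, against 51.1% of all genes. The difference was negative in 10 (17.5%) and positive in 0 at an unadjusted p under 0.05. The genes PSMB8, PSMB9, psmb12, psmb13a, psme1 and psme2 stand in this list and in that of antigen presentation. Mutants were higher in 4 members in EOM and in 9 in trunk, and lower in 0 in either. Of all genes, 2.35% were higher in EOM and 4.9% in trunk, with 1.77% and 3.22% lower. The median relative to all genes was -0.29, and -0.07 without WT EOM 2. With unscaled library totals 9 members were negative and 0 positive at an unadjusted p under 0.05. The gene psmf1, which encodes an inhibitor of the proteasome, averaged 14.7 ± 0.706 CPM in mutant EOM and 15.4 ± 0.0819 CPM in WT EOM, with trunk values of 21.3 ± 2.43 CPM in mutants and 14.2 ± 0.299 CPM in WT.

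Leukocyte and macrophage genes followed the same order. Of 40 tested genes (44 matched), 34 had a difference below 0, and 9 (22.5%) were negative and 0 positive at an unadjusted p under 0.05. In EOM 12 were higher and 1 lower in mutants, where 2.35% and 1.77% of all genes were. In trunk 19 were higher and 0 lower, where 4.9% and 3.22% of all genes were. The summed level of the 44 markers was 1718 to 2037 CPM in mutant EOM and 1361 to 1547 CPM in WT EOM, with trunk values of 766 to 1077 CPM in mutants and 508 to 549 CPM in WT. Mutant and WT did not overlap in either muscle, and 2 or 3 of the 44 genes had no read in a group. In bulk tissue, a changed number of cells of a type and a changed amount of RNA per cell cannot be told apart. The part of these cells in the values of antigen presentation was not tested. The cathepsin S gene ctss2.2, which cuts proteins in the lysosomes of antigen-presenting cells, rose by 0.70 ± 0.14 in EOM and by 1.34 ± 0.14 in trunk on the log2 scale. The gene fcer1gl, a signalling chain of immune receptors, rose by 0.79 ± 0.20 in EOM and by 1.70 ± 0.22 in trunk. The median of the list was -0.25 relative to all genes, -0.15 without mutant trunk 1 and -0.40 without mutant trunk 3. With unscaled library totals 5 members were negative and 0 positive at an unadjusted p under 0.05.

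Interferon-stimulated genes had 4 (12.5%) of 32 tested members (38 matched) negative at an unadjusted p under 0.05 (2 without mutant trunk 1) and 0 positive. Their median of -0.23 did not hold up, since it was 0.06 without WT EOM 1 and -0.55 without WT trunk 1. In trunk 8 of them were higher in mutants, and in EOM 0 were, against 4.9% and 2.35% of all genes. The gene irf8, a transcription factor of myeloid cells, averaged 13.9 ± 1.46 CPM in mutant EOM and 9.09 ± 1.99 CPM in WT EOM, with trunk values of 8.05 ± 1.80 CPM in mutants and 3.13 ± 0.0749 CPM in WT.

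Medians of some other cell types also lay away from that of all genes, though few of their members passed the unadjusted threshold. Of 20 tested genes of skin and gland epithelium (23 matched), 17 had a difference above 0 and 2 (10%) were positive at an unadjusted p under 0.05 (8 without mutant trunk 3). Their median was 0.78 relative to all genes, 0.37 without WT trunk 3, 0.46 without WT EOM 2 and 1.70 without mutant trunk 3. Their summed level was 2689 to 3115 CPM in mutant EOM and 2389 to 2914 CPM in WT EOM, with trunk values of 867 to 976 CPM in mutants and 765 to 1239 CPM in WT, and the groups overlapped in both muscles.

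Erythrocyte genes, which encode globins and other red cell proteins, had a difference below 0 in 8 of 8 tested members (10 matched), of which 1 was negative at an unadjusted p under 0.05 (0 to 2 when 1 library was left out). The median was -0.49 relative to all genes, -0.30 without WT EOM 2, -0.32 without WT EOM 1 and -0.16 without mutant trunk 3. Their summed level was 792 to 1113 CPM in mutant EOM and 1150 to 2476 CPM in WT EOM, without overlap, with trunk values of 316 to 529 CPM in mutants and 407 to 531 CPM in WT, which overlapped. No member passed the adjusted threshold in either muscle (edgeR). The adipocyte list had 6 of 10 tested members (13 matched) above 0 and a median of 0.50, or 0.28 without WT EOM 2, and the neutrophil list 4 of 5 below 0 (7 matched) and a median of -0.51, or -0.24 without WT EOM 2. The part of these cell types in the differences of the other lists was not tested.

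**Figure D4:**
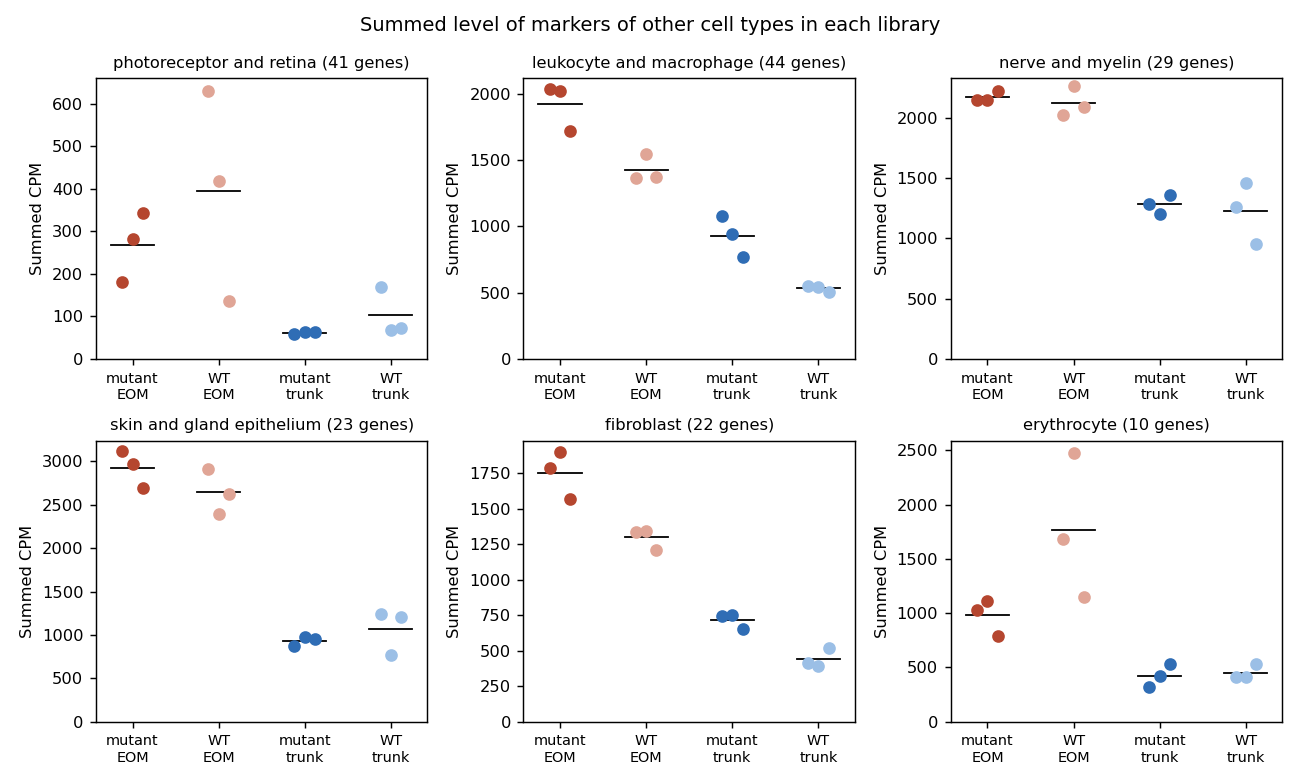
Summed CPM of marker genes of 6 other cell types in each library (points; the bar is the group mean), for mutant EOM, WT EOM, mutant trunk and WT trunk, 3 libraries each. Leukocyte and fibroblast markers are higher in mutants than in WT in both muscles, and the first WT trunk library has 169 CPM of photoreceptor markers against 67.8 and 72.4 CPM in the other WT trunk libraries.

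Glycolysis and the phosphagen system supply ATP quickly during contraction. Of 47 tested genes (48 matched), 16 (34%) had a negative difference and 2 (4.26%) a positive one at an unadjusted p under 0.05. The median member had a log2 fold change of -0.22 in EOM and 0.06 in trunk, and the median difference was -0.24 relative to all genes. In EOM 4 members fell in mutants and 0 rose, where 1.77% and 2.35% of all genes did. In trunk 2 rose and 2 fell, near the shares of all genes (4.9% and 3.22%). PHKG1 (ENSDARG00000069498.5), the catalytic subunit of phosphorylase kinase, which switches on glycogen breakdown, had 30.6, 28.8 and 33.9 CPM in mutant EOM, against 37.0, 44.3 and 41.1 CPM in WT EOM. In trunk PHKG1 had 24.3, 25.4 and 17.6 CPM in mutants, against 12.2, 12.7 and 14.99 CPM in WT. Mutants lay below WT in EOM and above WT in trunk, and the difference was -1.15 ± 0.21 (edgeR quasi-likelihood test, adjusted p = 0.0571). ALDOC (ENSDARG00000019702.8), an aldolase, fell in EOM, with a log2 fold change of -0.80 ± 0.19, and had one of 0.17 ± 0.20 in trunk, which did not pass. The gene ldha, lactate dehydrogenase, had a difference of -0.81 ± 0.24 (adjusted p = 0.304, edgeR).

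The count and the median of the glycolytic list moved when single libraries were left out. The count of 16 was 6 without WT EOM 2, 6 without mutant trunk 2, 7 without mutant EOM 2, 10 without mutant EOM 3 and 10 without WT trunk 3, and the count of 2 was 4 without WT EOM 3. The median was -0.09 without WT EOM 2 and -0.36 without WT EOM 3. With unscaled library totals 10 members were negative and 2 positive at an unadjusted p under 0.05.

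Cytosolic ribosomal proteins and the respiratory chain showed small shifts shared by nearly all members. Of 82 ribosomal protein genes, all tested, 81 had a difference below 0. At an unadjusted p under 0.05, 1 (1.22%) was negative and 0 were positive, against 4.74% and 5.06% of all genes. That count of 1 was 4 without WT EOM 3. The median effect was -0.04 in EOM and 0.26 in trunk, and the median difference -0.28 relative to all genes, at -0.38 without WT EOM 3, -0.18 without WT EOM 2 and -0.17 without mutant EOM 3. Of the tested respiratory chain genes encoded in the nucleus, 96 had a difference below 0 and 6 above 0, and 3 were negative at an unadjusted p under 0.05 (5 without WT EOM 3). The median effect was -0.28 in EOM and -0.08 in trunk. The median difference, -0.20 relative to all genes, was 0.02 without WT EOM 2, -0.10 without mutant EOM 3 or mutant trunk 2, -0.30 without WT EOM 1 and -0.32 without WT EOM 3, so that its direction rests on WT EOM 2. Genes of the respiratory chain encoded in mitochondrial DNA lay on the other side, with 11 of 13 above 0 and a median of 0.17 relative to all genes, or 0.02 without mutant EOM 2. Members of such lists share libraries and are measured together, so that many members on one side are not independent observations. Genes of fatty acid oxidation and the TCA cycle had a median of -0.02 relative to all genes, with 1 of 47 at an unadjusted p under 0.05.

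Genes of thioredoxin and antioxidant defence had 9 negative (15.3%) and 0 positive of 59 tested (65 matched). TMX2 (ENSDARG00000007786.8), a thioredoxin-related protein of the endoplasmic reticulum, had 11.1, 11.3 and 12.9 CPM in mutant EOM, against 10.3, 12.1 and 9.46 CPM in WT EOM. In trunk TMX2 averaged 29.5 ± 4.23 CPM in mutants and 14.5 ± 2.21 CPM in WT (SD, n = 3 each). The groups overlapped in EOM and were apart in trunk, with a difference of -0.87 ± 0.21 (edgeR quasi-likelihood test, adjusted p = 0.188). The count of 9 was 3 without WT EOM 2 and 5 without mutant EOM 3 or mutant trunk 1, and the median of -0.23 relative to all genes was -0.12 without WT EOM 2. With unscaled library totals 2 members were negative and 1 positive, so that the count depends on the scaling.

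**Figure D5:**
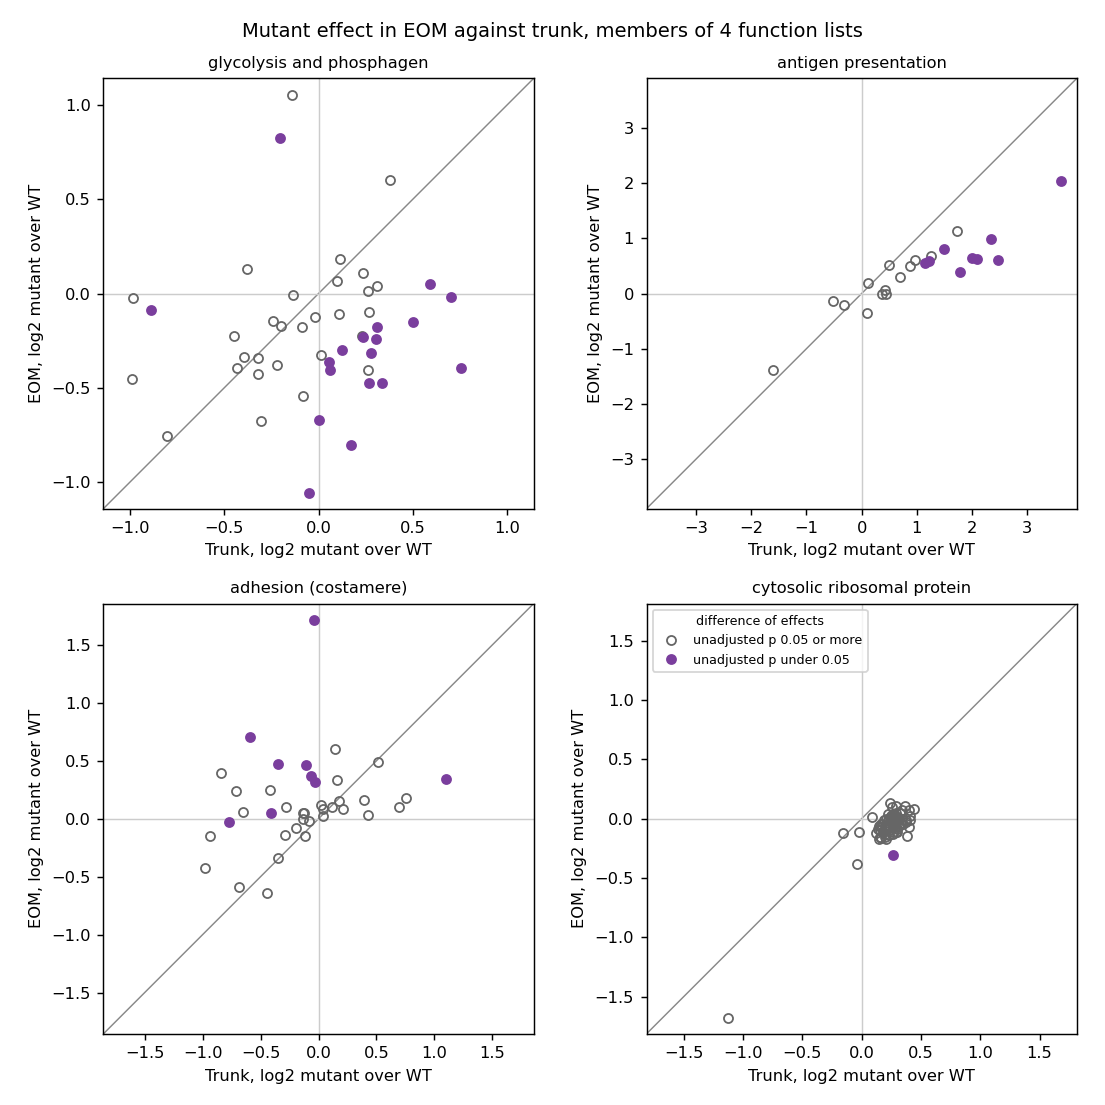
Log2 fold change of mutant over WT in EOM (vertical) against trunk (horizontal) for the tested members of 4 functions; filled points have an unadjusted p under 0.05 in the difference and the diagonal marks equal effects. In antigen presentation 9 filled genes lie below the diagonal and 0 above it. Of filled glycolysis and phosphagen genes 16 lie below it and 2 above, and of filled adhesion genes 8 lie above it and 1 below. Filled or open, 81 of 82 ribosomal protein genes lie below it.

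Adhesion genes of the costamere lay mostly on the other side. Costameres couple the Z-disc to the fibre membrane and matrix through integrins, talin, ankyrins and plectin, and plectin also anchors desmin filaments. Of 39 tested adhesion genes (40 matched), 8 (20.5%) had a positive difference and 1 (2.56%) a negative one at an unadjusted p under 0.05. The median member had a log2 fold change of 0.10 in EOM and -0.12 in trunk, a median difference of 0.16 relative to all genes. The ankyrin gene ank2a had 6.45, 6.81 and 8.86 CPM in mutant EOM, against 2.11, 1.45 and 3.18 CPM in WT EOM. In trunk ank2a had 12.7, 12.9 and 17.5 CPM in mutants, against 19.0, 16.2 and 9.08 CPM in WT. It rose in EOM, by 1.72 ± 0.30 on the log2 scale, and overlapped in trunk, with a difference of 1.76 ± 0.41 (edgeR quasi-likelihood test, adjusted p = 0.18). The plectin gene plecb averaged 283 ± 34.9 CPM in mutant EOM and 204 ± 15.5 CPM in WT EOM, with trunk values of 221 ± 34.6 CPM in mutants and 283 ± 20.4 CPM in WT, a difference of 0.83 ± 0.20 (adjusted p = 0.194, edgeR). The count of 8 was 4 without mutant EOM 3 or mutant trunk 1 and 5 without mutant trunk 2, and the median was 0.07 without WT EOM 2 and 0.33 without WT EOM 3. The 21 tested genes of the dystrophin complex (23 matched) had a median of -0.01 relative to all genes. Their 1 member with a positive difference was utrn, which encodes utrophin, a relative of dystrophin, at 0.52 ± 0.16 (adjusted p = 0.328, edgeR). That list had 4 positive members without WT EOM 3 and 3 negative ones without WT trunk 2.

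Contractile protein lists held members on both sides. Of 21 myosin heavy chain genes, all tested, 3 were positive (14.3%) and 1 negative (4.76%), and the median was 0.35 relative to all genes, between 0.24 and 0.41 over the fits without 1 library. The slow myosin gene smyhc2 fell in trunk, with a log2 fold change of -0.81 ± 0.19, and had one of 0.19 ± 0.19 in EOM. The fast myosin gene myhb had 253, 208 and 273 CPM in mutant EOM, against 183, 153 and 110 CPM in WT EOM. In trunk myhb had 123, 55.1 and 103.9 CPM in mutants, against 6.95, 20.1 and 7.14 CPM in WT. Mutants lay above WT in both muscles without overlap, by a larger fold in trunk. The difference for myhb was -2.33 ± 0.57 (edgeR quasi-likelihood test, adjusted p = 0.222). The count of 3 was 5 without WT EOM 3 and 6 without WT trunk 2.

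Among thin filament genes, 5 of 45 tested (47 matched) were negative (11.1%) and 2 positive (4.44%) at an unadjusted p under 0.05. In 31 of the 45 the difference was below 0, and the median was -0.24 relative to all genes, or -0.11 without WT trunk 3. TNNT3 (ENSDARG00000030270.10), a fast-type troponin T, had 24.5, 21.6 and 14.5 CPM in mutant EOM, against 10.4, 12.9 and 12.7 CPM in WT EOM. In trunk TNNT3 averaged 2.398 ± 0.878 CPM in mutants and 5.31 ± 0.874 CPM in WT (SD, n = 3 each). Mutants lay above WT in EOM and below in trunk, the reverse of TNNI2 in trunk, with a difference of 1.91 ± 0.34 (adjusted p = 0.0571, edgeR quasi-likelihood test). The count of 5 was 10 without mutant EOM 1, 9 without mutant trunk 3, and 3 without WT EOM 2, mutant EOM 2 or 3, or mutant trunk 1 or 2. The count of 2 was 4 without WT trunk 1 or 3. With unscaled library totals 5 thin filament genes were negative and 6 positive.

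At the Z-disc, 7 of 37 tested genes (39 matched) were negative (18.9%) and 3 positive (8.11%). The median was near 0 (-0.04 relative to all genes). Before the median of all genes is taken off, that median changes sign with unscaled totals. The gene cavin4a, which coats caveolae in muscle, averaged 131 ± 17.2 CPM in mutant EOM and 152 ± 19.6 CPM in WT EOM, with trunk values of 274 ± 18.3 CPM in mutants and 186 ± 20.5 CPM in WT (difference -0.77 ± 0.20). XIRP2 (ENSDARG00000071113.6), an actin-binding protein of muscle attachment sites, averaged 116 ± 6.86 CPM in mutant EOM and 76.9 ± 2.202 CPM in WT EOM, with trunk values of 575 ± 83.3 CPM in mutants and 699 ± 155 CPM in WT (difference 0.87 ± 0.22). The count of 3 was 1 without mutant trunk 1 and 5 without WT EOM 3. With unscaled library totals 4 Z-disc genes were negative and 3 positive. Of 97 tested chaperone genes, 6 were negative (6.19%, against 4.74% of all genes) and 1 positive (1.03%, against 5.06%). That count of 6 was 14 without WT trunk 3, and that of 1 was 3 without mutant trunk 3. With unscaled library totals 2 chaperone genes were negative and 3 positive. The small heat shock gene hspb1, whose product protects filaments under stress, averaged 285 ± 36.6 CPM in mutant EOM and 217 ± 18.9 CPM in WT EOM, with trunk values of 437 ± 27.1 CPM in mutants and 168 ± 31.7 CPM in WT. It rose in trunk by 1.37 ± 0.15 on the log2 scale, and the difference was -0.98 ± 0.21 (edgeR quasi-likelihood test, adjusted p = 0.126).

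Matrix genes went both ways. Of 56 tested matricellular and matrix protein genes (62 matched), 7 (12.5%) were positive and 10 (17.9%) negative at an unadjusted p under 0.05, with a median of 0.01 relative to all genes. POSTN (ENSDARG00000104267.3), which encodes periostin, had 10.5, 10.8 and 10.6 CPM in mutant EOM, against 16.1, 23.7 and 12.7 CPM in WT EOM. In trunk POSTN had 173, 185 and 169 CPM in mutants, against 100.7, 97.5 and 151 CPM in WT. As with THBS4, mutants lay below WT in EOM and above WT in trunk, with a difference of -1.32 ± 0.29 (edgeR quasi-likelihood test, adjusted p = 0.137). Laminins and other basement membrane proteins had 3 positive (5 without WT EOM 3) and 0 negative of 13 tested (14 matched). Their median was 0.21, with 0.13 without WT EOM 2 and 0.32 without mutant trunk 1. Among collagens, 4 of 30 tested (32 matched) were positive (13.3%) and 2 negative (6.67%). COL12A1 (ENSDARG00000019601.12), a collagen of the fibril surface, had 7.91, 8.16 and 8.78 CPM in mutant EOM, against 4.34, 2.66 and 4.25 CPM in WT EOM, and rose there. In trunk COL12A1 had 4.32, 4.79 and 5.33 CPM in mutants, against 4.40, 5.55 and 6.03 CPM in WT, which overlapped. Its difference was 1.29 ± 0.27 (adjusted p = 0.114, edgeR). The gene col15a1b, a collagen next to basement membranes, fell in trunk, with a log2 fold change of -0.99 ± 0.13, and had one of -0.29 ± 0.12 in EOM. The count of 7 matrix genes was 4 without WT EOM 2, mutant EOM 3 or mutant trunk 2, and the count of 2 collagens was 5 without WT trunk 3. With unscaled library totals 8 matrix genes were positive and 7 negative, and 5 collagens were positive and 0 negative.

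Fibroblast markers were summed over 22 genes beside these values. They include genes of fibrillar collagens and of the matrix proteins lumican and decorin, so that the sum is not separate from the matrix genes. The sum was 1565 to 1899 CPM in mutant EOM and 1211 to 1341 CPM in WT EOM, with trunk values of 650 to 748 CPM in mutants and 396 to 521 CPM in WT. Mutants lay above WT in both muscles without overlap, and no fibroblast marker was without reads except 1 in WT trunk. Of 21 tested markers 4 (19.0%) had a negative difference and 0 a positive one at an unadjusted p under 0.05. Their median was -0.11 relative to all genes, from -0.33 without WT trunk 3 to 0.04 without WT trunk 2. The part of fibroblasts in the matrix values was not tested.

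The medians of synaptic and nerve genes lay on different sides of that of all genes. The neuromuscular junction and synaptic scaffold list, which holds dlg2, had 5 positive (10.2%) and 2 negative (4.08%) of 49 tested (56 matched) and a median of 0.20 relative to all genes, or 0.12 without WT trunk 2. The count of 5 was 3 without WT EOM 2, mutant EOM 3, WT trunk 1 or WT trunk 2 and 9 without WT EOM 3, and the count of 2 was 4 without WT trunk 2. The gene lin7a, a scaffold partner of such kinases, fell in EOM, with a log2 fold change of -0.54, and had one of 0.11 in trunk. Genes of nerve and myelin had 0 positive and 5 negative (18.5%) of 27 tested (29 matched). Their summed level was 2142 to 2220 CPM in mutant EOM and 2023 to 2259 CPM in WT EOM, with trunk values of 1202 to 1357 CPM in mutants and 956 to 1462 CPM in WT. Mutant and WT overlapped in both muscles. The median was -0.28 relative to all genes, -0.14 without WT trunk 3, -0.44 without WT trunk 1, -0.47 without mutant EOM 2 and -0.51 without WT EOM 3. The count of 5 was 8 without WT EOM 3 or mutant trunk 2.

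In the satellite cell and myogenic list 5 of 26 tested genes (30 matched) were negative (19.2%) and 1 positive (3.85%). The count of negative genes was 4 or 5 in each fit without 1 library, and the median was -0.11 relative to all genes. Some other lists departed little or by way of single libraries. The median of the lipid and sterol synthesis list, 0.35 relative to all genes, was -0.05 without WT trunk 3. The median of the cell cycle list, -0.33, ranged from -0.84 without WT trunk 3 to -0.13 without WT EOM 2, and its count of 3 negative genes of 38 was 13 without WT trunk 3 and 1 without WT EOM 2, mutant EOM 1 or 3, WT trunk 2, or mutant trunk 1 or 3. The retina and photoreceptor list had 3 positive of 38 tested (5 without WT EOM 1 or mutant EOM 1, 6 without WT trunk 3), and its median of 2.50 was 0.07 without WT trunk 1. Genes of the circadian clock had 31 of 40 above 0 and 0 at an unadjusted p under 0.05 (4 without WT EOM 3 or mutant EOM 1, 3 without WT trunk 3), at a median of 0.22, or 0.07 without WT EOM 2 and 0.41 without WT trunk 3. The 7 genes of the four-and-a-half LIM family, one of which the series title names, had a median of -0.15 (-0.03 without mutant trunk 2, -0.10 without mutant EOM 2) and 0 at an unadjusted p under 0.05. The FHL2 gene ENSDARG00000003991.8 averaged 175 ± 12.7 CPM in mutant EOM and 106.1 ± 8.75 CPM in WT EOM, with trunk values of 7.88 ± 2.89 CPM in mutants and 4.28 ± 0.580 CPM in WT. It rose in trunk by 0.88 ± 0.21 on the log2 scale (edgeR quasi-likelihood test, adjusted p = 0.0215) and its log2 fold change in EOM was 0.72 ± 0.20 (adjusted p = 0.061, edgeR). The difference between muscles was -0.17 ± 0.29. The other FHL2 gene, ENSDARG00000042018.7, had a difference of 0.26 ± 0.19, and neither passed the test. Both were named because the title of the series holds one of them, with their values known, and the name table does not say which is fhl2b.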

How the data were processed

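RNA from 12 zebrafish muscle samples was sequenced as stranded, poly-A selected libraries. The deposited files hold raw counts of reads per gene, which the authors made with STAR on GRCz11, and DESeq2 is also listed, per the submitters' processing notes; versions and the annotation are not given in the sources used here. The files carry counts for both strands and each strand. The sense column was used, since the opposite strand held 2.77% to 3.21% of the stranded reads, and 0 columns were left unmapped. Tallies that name no gene (unmapped, multimapping, in no gene or ambiguous; together 26.5% to 32.1% of reads) were left out of library sizes, and reads in no gene alone made up 5.93% to 9.57%.

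From the counts, edgeR 4.0.16 (limma 3.58.1, R 4.3.3) fitted 1 quasi-likelihood model with TMM scaling and filterByExpr over 4 group means. The effects in EOM and trunk and their difference were contrasts of that fit, with Benjamini-Hochberg adjustment over 19687 genes and a threshold of 0.05. CPM use TMM-scaled totals. Scripts in Python 3.11.15 (pandas 2.3.3, numpy 2.4.6, scipy 1.17.1, matplotlib 3.10.9) summarised the lists. The fit was tested on simulated data. Of 32520 IDs, 29201 matched a symbol in the name table, and 6314 share theirs with another ID, so those carry the ID.

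Genes named are the desmin genes, every gene past the threshold in the difference and its listed paralogs, and up to 3 members of each of 50 lists in order of unadjusted p, where under 0.05. The lists and this comparison were chosen with earlier results of these data known. Alternatives were DESeq2 1.42.0, limma-voom, other scalings and filters, counts of either strand, replicate blocks, separate fits per muscle and leaving out each library. Whether the replicate numbers pair the samples was not settled, and the main fit does not pair them. Precision was set by the spread of 3 libraries per group at 46090609 to 74146170 reads each, and floors and intervals cover counting error only. Sequences were not used here.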

Additional observations from a re-analysis of the deposited data

Results flagged for a closer look

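All 18 genes below drew attention because the mutant effect in EOM and in trunk differed by the test of the difference itself. The log2 differences, EOM minus trunk, were negative for THBS4 (-2.36), comp (-1.37) and TGM2 (-1.77) among matrix genes, and for TNNI2 (-2.26) among contractile genes. They were also negative for ndufa4b (-2.26), txnb (-3.82) and dhrs11b.1 (-1.58) in energy and redox metabolism, and for rasd2b (-4.45) and myo5b (-2.38) in signalling and transport. The genes zgc:110699 (-2.10), ENSDARG00000104924 (-1.87) and ENSDARG00000098989 (-2.30) completed the 12 on that side. The 6 positive differences belonged to PAX6 (7.38), si:dkey-193e13.8 (2.37), dlg2 (2.06), sacs (1.47), sestd1 (1.38) and mylk3 (0.92). For PAX6 and rasd2b the fitted size depends on the count the model adds to groups with few or no reads.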

How the results depend on the processing

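The number of genes called in the difference was 18. It was 35 with no filter on low counts, 11 with at least 50 reads on average, 192 with DESeq2, 11 with limma-voom and 5 to 19 without 1 library. RLE size factors gave 18, unscaled totals 12 and counts of either strand 15. All 18 genes were among the 192 of DESeq2, and 10 were among the 12 with unscaled totals. For the effect in EOM the count of 811 was 1426 with DESeq2 and 352 to 951 without 1 library, and for the effect in trunk the count of 1597 was 2431 with DESeq2 and 765 to 1904 without 1 library. Same-numbered EOM and trunk libraries of a genotype correlated at r from -0.16 to 0.32 over 6 pairs. Libraries of the same number but the other genotype correlated at -0.19 to 0.25 over 12 pairs. With 3 libraries per group, these values cannot settle whether the numbers pair the samples. With a replicate block the difference had 6 calls, EOM 678 and trunk 1559; with a replicate block within genotype the counts were 1, 25 and 306, the 1 being THBS4. The difference of the desmin gene DES ENSDARG00000058656.6, 0.06 and not called, changed sign without WT EOM 1 (-0.005), mutant EOM 3 (-0.10), WT trunk 2 (-0.01) and mutant trunk 1 (-0.23), and ranged from -0.23 to 0.49. Over the 18 called genes, 217 of 376 alternatives kept the call, 159 lost it and 0 reversed the direction. Of 1000 alternatives over list medians, 52 moved the median by more than 1 SD between replicates. The causes of these changes were not tested.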
